A study of Mus musculus with 9 samples.

Results

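Accessible chromatin was compared between day 21 and day 8 after transfer of tumor-specific CD8 T cells, in cells taken from the lymph node that drains the tumor. The comparison used 6 of the 9 peak lists of the series, the 3 titled day 21 and the 3 titled day 8, chosen by title alone. It covered chromosomes 1 to 19 and X. Over the 9 lists, peaks merged into 62963 regions, and 34555 of them were called in all 6 lists and could be ranked against each other. In both groups the donor cells were wild-type P14 cells on the C57BL/6 background. The receptor of P14 cells is transgenic and recognises the epitope GP33-41 of lymphocytic choriomeningitis virus (LCMV), and these cells came from reporter mice in which green fluorescent protein marks TCF-1. The hosts carried B16.F10 melanoma cells engineered to express the LCMV glycoprotein, and 500000 naive donor cells went in 8 days after the tumor. At each time the sorted population was CD45.1+CD44+CD8 T cells, with 50000 cells in a library. The groups thus share tumor line, donor genotype and sort, and differ in the days since transfer, which are also days of tumor growth.

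A naive CD8 T cell that meets its antigen opens chromatin at effector genes, and a minority of its progeny keeps a memory-like or stem-like state under factors such as TCF-1. With antigen that persists, as in tumors, genes of inhibitory receptors such as PD-1 also become accessible. The draining node is known as a place where memory-like tumor-specific cells persist. In ATAC-seq the Tn5 transposase cuts open DNA, and a peak marks a region cut more often than its surroundings. Sorted cells were measured in bulk, so more cells with an open region and more opening per cell cannot be told apart.

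Each list gives the authors' fold enrichment of a peak over its own local background. This was ranked within a list among the 34555 regions, so that a percentile of 90 means that 90% of these regions had a lower fold enrichment in that list. Differences are given on the normal score, the standard normal quantile of that rank, as day 21 minus day 8 with its SE, and adjusted p-values are from limma with Benjamini-Hochberg adjustment over all 34555 regions. The labels do not say whether the 3 lists of a day came from separate animals. In the deposited names the 3 lists of a day carry the same sample-index label, and each day has its own label. The lists of a day may thus be repeats of 1 library, and each p-value measures only the spread between these lists, which may be technical.

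The sequences of 6 promoters that passed the rank test show the range of CpG content among the promoters where accessibility rose or fell in rank. Each is the 250 bases before the transcription start, 5′ to 3′, from RefSeq's promoter table for GRCm38.p6, with every CG in capitals. The first 3 rose on day 21 and the last 3 fell.
Klhl4, chrX:114474083-114474332 (+ strand): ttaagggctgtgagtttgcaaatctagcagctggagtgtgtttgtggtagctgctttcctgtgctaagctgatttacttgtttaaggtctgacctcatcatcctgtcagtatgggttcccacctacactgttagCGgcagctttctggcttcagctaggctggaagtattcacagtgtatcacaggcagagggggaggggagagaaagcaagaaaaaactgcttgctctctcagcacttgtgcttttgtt
Lilr4b, chr10:51480362-51480611 (+ strand): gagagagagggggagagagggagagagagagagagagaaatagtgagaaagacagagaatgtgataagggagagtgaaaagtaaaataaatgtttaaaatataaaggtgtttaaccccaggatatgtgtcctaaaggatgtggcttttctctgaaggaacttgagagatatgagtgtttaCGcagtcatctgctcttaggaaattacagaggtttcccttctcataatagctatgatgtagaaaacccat
Chchd6, chr6:89595653-89595902 (- strand): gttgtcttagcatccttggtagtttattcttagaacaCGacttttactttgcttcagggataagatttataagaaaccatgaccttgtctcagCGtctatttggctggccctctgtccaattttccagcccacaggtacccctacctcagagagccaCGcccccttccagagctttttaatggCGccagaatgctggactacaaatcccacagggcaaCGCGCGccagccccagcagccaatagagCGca
Uqcc1, chr2:155930311-155930560 (- strand): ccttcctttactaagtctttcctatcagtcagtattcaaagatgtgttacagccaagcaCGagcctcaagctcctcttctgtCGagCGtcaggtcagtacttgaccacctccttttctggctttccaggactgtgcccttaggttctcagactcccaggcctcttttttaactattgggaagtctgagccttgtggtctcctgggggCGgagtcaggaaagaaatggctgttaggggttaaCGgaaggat
Rrp1, chr10:78413044-78413293 (- strand): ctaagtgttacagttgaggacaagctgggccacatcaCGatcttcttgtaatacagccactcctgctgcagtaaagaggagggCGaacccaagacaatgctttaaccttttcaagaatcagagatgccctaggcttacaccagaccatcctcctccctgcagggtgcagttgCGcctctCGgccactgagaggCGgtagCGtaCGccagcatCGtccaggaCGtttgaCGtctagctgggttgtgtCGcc
Raph1, chr1:60566766-60567015 (- strand): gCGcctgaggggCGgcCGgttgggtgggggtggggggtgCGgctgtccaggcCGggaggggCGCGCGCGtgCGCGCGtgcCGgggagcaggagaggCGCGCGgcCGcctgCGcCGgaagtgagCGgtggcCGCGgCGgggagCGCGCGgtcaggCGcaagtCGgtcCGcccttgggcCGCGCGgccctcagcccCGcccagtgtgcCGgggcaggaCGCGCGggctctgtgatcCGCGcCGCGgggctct
The promoters of Klhl4 and Lilr4b each hold 1 CG in these bases, that of Chchd6 holds 8, those of Uqcc1 and Rrp1 hold 5 and 11, and that of Raph1 holds 41. Of those not shown, that of Epha3, which rose, holds 16. Those of Gm32252 and Mrpl48, which fell, hold 3 and 4, so rises and falls overlap in CG number.

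The lists of both days were alike in size. The day 8 lists held 47513, 48085 and 50835 peaks and the day 21 lists 47096, 46492 and 51671, so the days overlapped. The means were 48811 ± 1776 (SD, n = 3) on day 8 and 48420 ± 2832 (SD, n = 3) on day 21, a difference of −391 peaks (exact permutation test, two-sided p = 0.7; 3 lists against 3 cannot go below 0.1). The share of peaks within 1 kb of an end of a protein-coding gene was 26.9% ± 0.697 on day 8 and 26.5% ± 1.12 on day 21 (SD, n = 3 each; exact permutation test, two-sided p = 0.5). Median peak widths were 399, 405 and 404 bases on day 8 and 414, 413 and 422 on day 21, without overlap (exact permutation test, two-sided p = 0.1, the smallest possible). The lists carry no read totals. As a stand-in for depth, the smallest local background of a list was 2.38 ± 0.246 tags on day 8 and 2.60 ± 0.414 on day 21 (SD, n = 3 each; exact permutation test, two-sided p = 0.6).

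Lists of the same day were closer to each other than lists of different days. Over the 34555 regions, normal scores correlated at 0.902 to 0.912 in the 6 same-day pairs and at 0.867 to 0.876 in the 9 pairs across the days, as a description over regions. Summit pileups, the number of tags stacked at a peak's summit, gave chi-squares per region between 0.463 and 0.488 for same-day lists. Across the days these were 0.935 to 1.02. Independent counts would give about 1. Pairs across the days lay near that value, so on average their pileups differed about as much as independent counts would. Same-day lists differed by less, in all 6 pairs alike. The tests on summit pileup below measure the days against this smaller spread. Whether the same-day lists are repeats of 1 library was not settled by these values, and the 3 lists of a day were kept as 3 values.

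Marker genes of CD8 T cells were open on both days. All 10 marker genes with a known position had called regions, 23 to 25 per day 8 list and 23 to 26 per day 21 list, or 17.9 and 18.7 regions per 100 kb of gene body. Marker genes of B cells had 1.85 regions per 100 kb on each day, and Ms4a1 and Fcer2a had none in any of the 6 lists. Those of myeloid cells had 4.94 and 4.72, with Lyz2, Adgre1, Xcr1, Siglech and Ly6g at none. Those of NK cells had 9.28 and 8.94 (Ncr1, Klra8 and Klri2 at none), those of CD4 and regulatory T cells 7.23 and 6.53 (Foxp3 and Il4 at none) and those of stromal and endothelial cells 3.44 and 3.60 (Col1a2, Cdh5, Ccl19 and Ccl21a at none). Melanoma genes had 1.39 and 1.82, with Tyr, Tyrp1 and Sox10 at none, and erythroid and platelet genes 8.24 and 7.41, with Hbb-bs, Hba-a1 and Pf4 at none.

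Most accessible regions were shared between the days. Of the 62963 regions, 34555 (54.9%) were called in all 6 lists. Gained regions, called by all 3 day 21 lists and by no day 8 list, numbered only 640 (1.02%), and lost regions, the reverse, numbered 688 (1.09%). Many more were called in a single list, 4785 in 1 day 21 list only and 5186 in 1 day 8 list only. Gained and lost regions were weak: their median percentile within the lists that called them was 22.8 and 23.7, against 61.3 for the regions called in all 6 lists. They were also narrow, with median widths of 347 and 331 bases against 699.

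**Figure D1:**
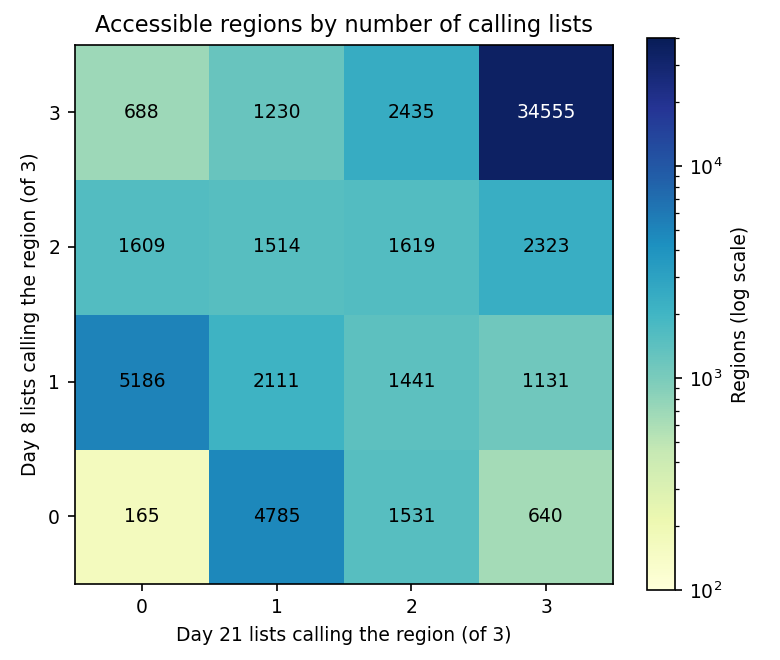
Number of regions by how many of the 3 day 21 lists (horizontal) and of the 3 day 8 lists (vertical) called them, with colour on a log scale. The corner called in all 6 lists holds 34555 regions, and the corners of complete gain and loss hold 640 and 688.

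The gained regions ranking highest in their lists lay in or near genes of varied function. The highest was chrX:107250302-107250788, 5.09 kb from Gpr174, which encodes a lysophospholipid receptor of lymphocytes, at percentiles 86.3, 39.96 and 72.7 of the 3 day 21 lists. Next were regions in Qrfprl (57.9, 76.1 and 64.8) and in Hecw2, a ubiquitin ligase gene (56.3, 82.3 and 59.1), and a region 6.39 kb from St8sia4, which encodes a polysialic acid synthase (60.7, 57.6 and 75.0). The other 6 of the 10 highest had mean percentiles of 54.2 to 61.3 and lay near Tent5a and Zfp40, in Mfsd14b, Lnpep and Rab28, and 1313 kb from Kcnt2, its nearest gene. None of these 10 was called in a day 4 list. The day 4 lists were shorter, at 19854, 19499 and 22250 peaks. At least 1 of them called 21 of the 640 gained regions (3.28%) and 10 of the 688 lost (1.45%). Over all 62963 regions this share was 37.1%, and over those called in all 6 lists 65.0%. Gained and lost regions were also weak where called, and the part of this in their low shares was not tested.

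Among lost regions the highest was chr9:44076774-44077114 in Usp2, a deubiquitinase gene, at percentiles 57.0, 76.0 and 73.8 of the day 8 lists. It was followed by regions in Utrn, the gene of the cytoskeletal protein utrophin (69.5, 69.8 and 60.4), and in Map4, a microtubule-associated protein gene (68.8, 56.4 and 74.1). The other 7 had mean percentiles of 57.2 to 65.5. They lay near Rnft1 and Sgk1, the latter a kinase gene, and in Slc9a2, Myzap, Col26a1, Aph1b and Btrc. The Col26a1 region was also called in 2 day 4 lists.

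The share of gained and lost regions at core T cell genes was near that of all regions. Of the 40 core genes, which cover memory, effector and exhaustion programs, 5 gained a region and 5 lost one, of 444 regions (1.13% each, against 1.02% and 1.09% of all regions). The wider list of memory and stemness genes had 6 gained and 2 lost of 485 regions. The gained regions lay in Pdcd1, the gene of PD-1 (chr1:94042182-94042822, mean percentile 20.1), in Ctla4, the gene of another inhibitory receptor (chr1:60910868-60911105, 8.3), and in Foxo1, a factor of memory cells (chr3:52299439-52299744, 2.3). The other 2 lay 62.6 kb from Myb, a factor of stem-like cells (chr10:21223562-21224032, 31.2), and 6.9 kb from Cd69, a retention receptor gene (chr6:129282300-129282690, 4.9). The lost regions lay in Il2ra, a chain of the interleukin-2 receptor (chr2:11655408-11655684, 11.03), 21.6 kb from Zeb2 (chr2:45138997-45139220, 35.2), 40.7 kb from Foxo1 (chr3:52390819-52391153, 12.9), 1.0 kb from Itgae (chr11:73148477-73148751, 20.4) and 2.7 kb from Id2 (chr12:25098764-25099012, 7.4). No day 4 list called any of these 10 regions, as held for most gained and lost regions.

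Ranks moved little at most regions called in all 6 lists. The median absolute difference between the days was 5.62 percentile points, 71.2% of regions differed by less than 10 points, and 7.66% differed by more than 20 points (1399 higher and 1247 lower on day 21). The rank test found 136 regions higher on day 21 (0.394% of 34555) and 74 lower (0.214%), together 0.608%. At an unadjusted p under 0.05 there were 5713 regions (16.5%). In all 210 regions that passed, the 3 lists of a day lay apart from the 3 of the other, as they did in 10.3% (higher) and 10.9% (lower) of all tested regions.

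**Figure D2:**
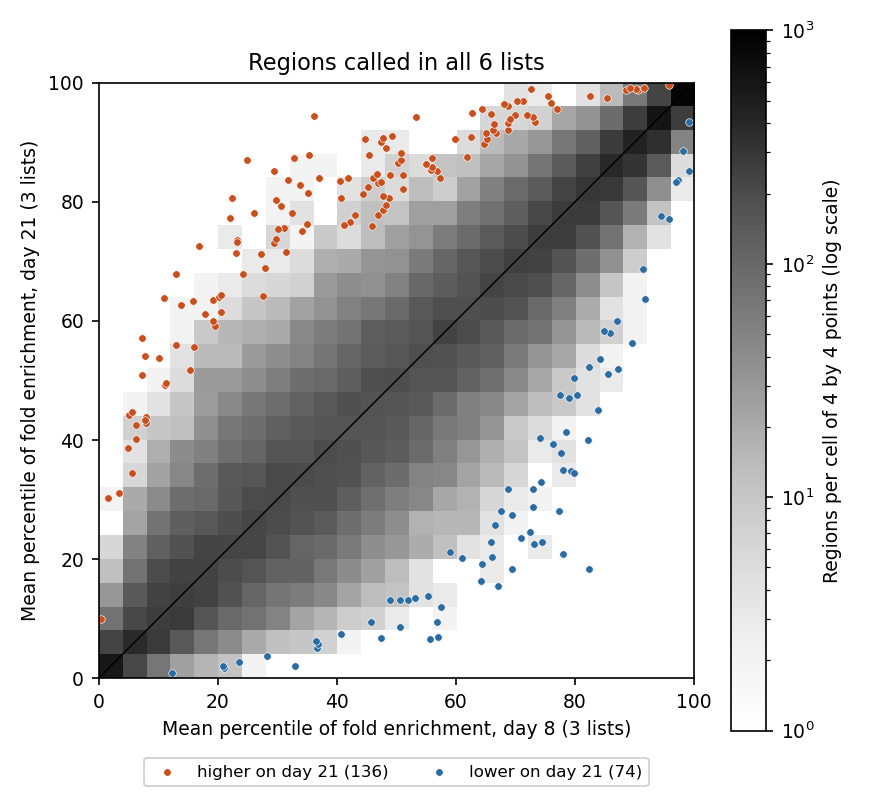
Mean percentile of fold enrichment on day 21 (vertical) against day 8 (horizontal), each over 3 lists, for the 34555 regions called in all 6 lists (grey, regions per cell of 4 by 4 points on a log scale). The coloured points are the 136 regions higher and the 74 lower on day 21, which lie along both outer edges of a cloud centred on the diagonal.

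Regions that passed were found near gene ends less often than tested regions as a whole, as a description with no test. The 136 that rose had a median percentile of 43.8 on day 8 and 83.0 on day 21. Of these, 65 overlapped a gene body (47.8%, against 68.5% of all tested), 10 came within 1 kb of an end (7.35%, against 31.7%) and 22 lay more than 100 kb from any gene. The 74 that fell went from a median of 73.0 to 26.5, and 39 of them overlapped a gene body (52.7%), 12 lay within 1 kb of a gene end (16.2%) and 1 lay beyond 100 kb. Of all tested regions, 1347 lay beyond 100 kb. The median number of gene starts within 500 kb was 5 for the regions that rose, 19 for those that fell and 12 for all tested.

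The largest rise was at chr9:11513676-11514348, 609 kb from the nearest gene, Cntn5, which encodes a neuronal adhesion protein. Its percentiles were 51.5, 25.1 and 31.9 on day 8 and 91.7, 95.3 and 96.6 on day 21 (normal score difference 1.99 ± 0.20 SE, limma, adjusted p = 0.00286). Every day 21 list was far above the highest day 8 list. These are ranks of a ratio. The region's summit pileup was at percentiles 18.1, 5.21 and 7.70 on day 8 and 52.7, 60.5 and 57.5 on day 21. Its local background was low in all 6 lists, at 2.0, 5.36 and 3.42 and at 14.7, 19.9 and 13.3. The named rises and falls were chosen among regions where the lists of the days do not overlap. A similar rise occurred at chr12:93173620-93174151, 279 kb from Gm40892, from 16.7, 34.9 and 23.1 to 88.6, 86.3 and 86.3 (1.83 ± 0.19, limma, adjusted p = 0.00286). Another distant region, chr1:141897790-141898425, lay 1284 kb from the potassium channel gene Kcnt2 and went from 4.6, 34.9 and 11 to 64.7, 83.1 and 69.9 (1.72).

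Of the named rises in or nearest to genes of lymphocyte biology, the largest lay in Vav3. Vav3 encodes an exchange factor for small GTPases that acts in antigen receptor signalling. The region chr3:109361869-109362537 was among the weakest on day 8, at percentiles 16.7, 2.2 and 3.2, and near the middle on day 21, at 63.1, 59.4 and 49.1 (1.80 ± 0.29 SE, limma, adjusted p = 0.0234). No day 4 list called it. These lists were shorter, and at least 1 of them called 65.0% of all tested regions. A region 179 kb from Gata3, a transcription factor gene of T cell development and helper cells, rose from 1.5, 1.3 and 2.0 to 35.0, 27.9 and 27.7 (chr2:9677073-9677619, 1.63 ± 0.24, limma, adjusted p = 0.0179). Prex2, another Rac exchange factor gene, held a region that rose from 8.0, 20.1 and 4.8 to 64.6, 70.7 and 56.4 (chr1:11229347-11230118, 1.66). That the day 8 and day 21 lists did not overlap at any of these was a condition of their choice. The Gata3 region lay beyond the 100 kb used to assign regions, so Gata3 is only its nearest gene.

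The other 4 of the 10 largest rises lay in Cntln, a centrosomal protein gene (chr4:84946462-84946829, 1.72), in Adgb (chr10:10395997-10396478, 1.71), in Nrxn3, a synaptic adhesion gene (chr12:89364725-89365231, 1.67), and 6.86 kb from Zcchc9 (chr13:91814577-91815202, 1.71). The Zcchc9 region differed from the rest in starting high by fold enrichment, at percentiles 88.3, 56.6 and 72.9, and it ended at 97.9, 99.5 and 99.4. Its summit pileup ranked lower, at 45.5, 20.7 and 31.4 on day 8 and 63.1, 66.2 and 64.7 on day 21. Its local background was at percentiles 2.0, 3.99 and 4.32 on day 8 and 16.6, 12.1 and 12.1 on day 21. The Nrxn3 region lay inside the gene body, with 0 gene starts within 500 kb, and went from 37.1, 15.6 and 53.1 to 95.2, 78.0 and 90.6.

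Among the falls, a region in the body of Tbx21 stood at a gene central to effector T cells. Tbx21 encodes T-bet, which drives the effector program. Its region chr11:97101736-97102244 was at percentiles 60.4, 66.3 and 65.8 on day 8 and at 3.6, 9.2 and 36.1 on day 21 (−1.53 ± 0.31 SE, limma, adjusted p = 0.0494). All day 21 lists lay below the lowest day 8 list, as the choice of regions required, though they spread widely among themselves. The other 2 tested regions of Tbx21 did not pass, and the median difference over its 3 tested regions was 0.09. None of the shorter day 4 lists called the falling region.

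A region 292 kb from Satb1, the gene of a chromatin organiser of T cells, fell from 42.2, 52.5 and 57.0 to 15.9, 1.3 and 8.4 (chr17:52125223-52125695, −1.55). The region 25 kb from Pax7, a muscle stem cell factor gene, was the fall with the smallest p-value, at 86.3, 83.7 and 76.9 on day 8 and 15.9, 16.9 and 22.2 on day 21 (chr4:139858538-139859096, −1.85 ± 0.19 SE, limma, adjusted p = 0.00286). The largest fall by size was in Hfm1, a meiotic helicase gene, from 37.1, 73.5 and 60.5 to 11.7, 8.5 and 0.5 (chr5:106885326-106886166, −1.90). All 3 ended low in the ranks in every day 21 list. Satb1 is only the nearest gene of its region, which lay beyond the 100 kb used to assign regions.

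Another 5 of the 10 largest falls lay in Brf1, an RNA polymerase III factor gene (chr12:112994211-112994578, −1.75), in both Pi4kb, a lipid kinase gene, and Zfp687 (chr3:94996917-94997313, −1.70), in Bcas3 (chr11:85382107-85382435, −1.52), 81.7 kb from the forkhead gene Foxk1 (chr5:142319338-142319822, −1.50), and 2.54 kb from Bhlhe23 (chr2:180779444-180779820, −1.49). Their day 8 percentiles ran from 38.4 to 89.4 and their day 21 percentiles from 1.8 to 41.5. Whether a region in a gene body lies in an exon or an intron was not analysed here.

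**Figure D3:**
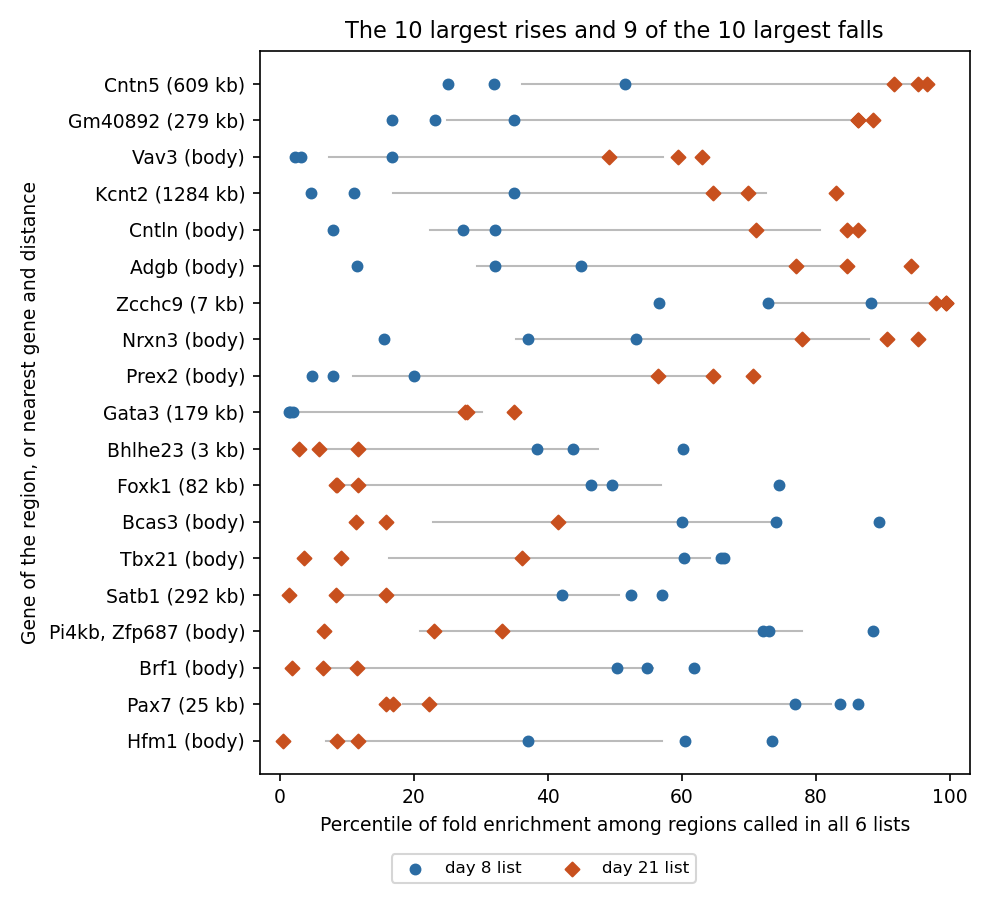
Percentile of fold enrichment in each of the 3 day 8 lists (circles) and the 3 day 21 lists (diamonds) at the 10 regions with the largest rise and 9 of the 10 with the largest fall, named by their gene or nearest gene. Grey lines join the means of the days. Circles and diamonds overlap in no row because the regions were chosen so.

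Of the 210 regions, 14 overlapped a promoter of RefSeq's table, 5 that rose and 9 that fell, among 9099 tested regions that overlap one. Klhl4, a kelch family gene, had the rise with the smallest p-value, from percentiles 60.0, 39.5 and 60.5 to 91.8, 95.8 and 95.1 (1.51 ± 0.19 SE, limma, adjusted p = 0.00833). The promoter region of Lilr4b, which encodes an immunoglobulin-like receptor of leukocytes, went from 38.2, 37.4 and 47.8 to 69.1, 77.4 and 81.9 (0.95). That of Chchd6, a gene for a component of the mitochondrial inner membrane scaffold, went from 87.9, 87.2 and 92.6 to 99.1, 99.1 and 99.0 (1.11). The other promoters that rose were those of the ephrin receptor gene Epha3 (1.56) and of Gm10777 (1.02).

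Of the promoters that fell, that of Uqcc1, an assembly factor of respiratory complex III, went from the top of the ranks, 98.8, 99.8 and 98.9, to 82.2, 89.2 and 84.3 (−1.45 ± 0.21 SE, limma, adjusted p = 0.0179). That of Rrp1, a ribosomal RNA processing gene, went from 98.6, 98.5 and 97.6 to 86.7, 88.7 and 90.4 (−0.91). Raph1, which encodes the actin regulator lamellipodin, went from 40.4, 40.6 and 41.2 to 5.02, 14.6 and 2.81 (−1.30). The remaining 6 were Mrpl48, a mitochondrial ribosomal gene (−1.14), Dsn1, a kinetochore gene (−0.88), Grin1, Rnpepl1, Gm32252 and 2610318N02Rik, with differences of −0.89 to −1.27 for the last 4. With gene density removed, described below, 8 of the 14 promoter regions passed; those of Rrp1, Epha3, Rnpepl1, Gm32252, Grin1 and 2610318N02Rik did not (limma, adjusted p from 0.0508 to 0.0667).

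The promoters that passed were described by base composition, with no test. Over the whole 300 bases of the table's windows, GC content had a median of 53.0% in the 5 that rose, 56.0% in the 9 that fell and 61.7% in all 9099, and the median number of CG was 6, 18 and 22. The bin poorest in GC of 5 held 4 of the 5 that rose and 4 of the 9 that fell. The median rank difference over tested promoters went from −0.03 in that bin to −0.10 in the richest. Letters of 6 motifs were searched on both strands, without removing overlaps. The ETS letters CCGGAAG occurred in 2 of the 9 that fell (Raph1 and Mrpl48) and in none of the 5 that rose, against 18.9% of tested promoters and 8.86% of all 32851 in the table. The NFAT letters TGGAAA, which share GGAA with the ETS letters, occurred in 2 of 9 and 1 of 5 (15.8% of tested, 21.4% of all). The TCF/LEF letters CTTTGAA occurred in 1 of 9, in Uqcc1, and in none of 5 (3.40% and 5.13%). The AP-1 letters TGANTCA (4.71% and 7.81%), the T-box letters AGGTGTGA (0.923% and 1.27%) and the RUNX letters TGTGGTT (4.14% and 5.27%) occurred in none of the 14.

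Genome-wide, ranks on day 21 shifted from gene-dense toward gene-poor surroundings. At the 4461 regions with 0 to 4 gene starts within 500 kb, the median normal score was −0.127, −0.109 and −0.112 in the day 8 lists and −0.01, 0.00 and 0.01 in the day 21 lists. At the 3322 regions with 35 to 73 gene starts it was 0.09, 0.07 and 0.07 on day 8 and −0.02, −0.01 and −0.04 on day 21. In both bins the lists of the days did not overlap. The median difference fell steadily over the 5 bins of rising gene density, at 0.07, 0.03, −0.01, −0.07 and −0.08.

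Calls followed the same gradient. From the gene-poorest to the gene-densest bin, 56, 38, 36, 5 and 1 regions rose and 1, 14, 19, 27 and 13 fell. Gained regions numbered 176, 247, 149, 52 and 16 and lost regions 59, 166, 218, 166 and 79, of 9351, 17782, 19103, 11477 and 5250 regions. On chromosome 11, whose 2518 tested regions had a median of 19 gene starts, 3 regions rose and 12 fell. On chromosome 10, with 2023 tested regions and a median of 9, the numbers were 12 and 1. Both were picked as examples, and not all chromosomes did so. On chromosome 4, with 2105 tested regions and a median of 15, 9 rose and 4 fell. The gradient was present away from gene ends, from 0.12 to −0.08 over the bins. Within 1 kb of gene ends the difference was −0.08 in the poorest and the densest bin alike.

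**Figure D4:**
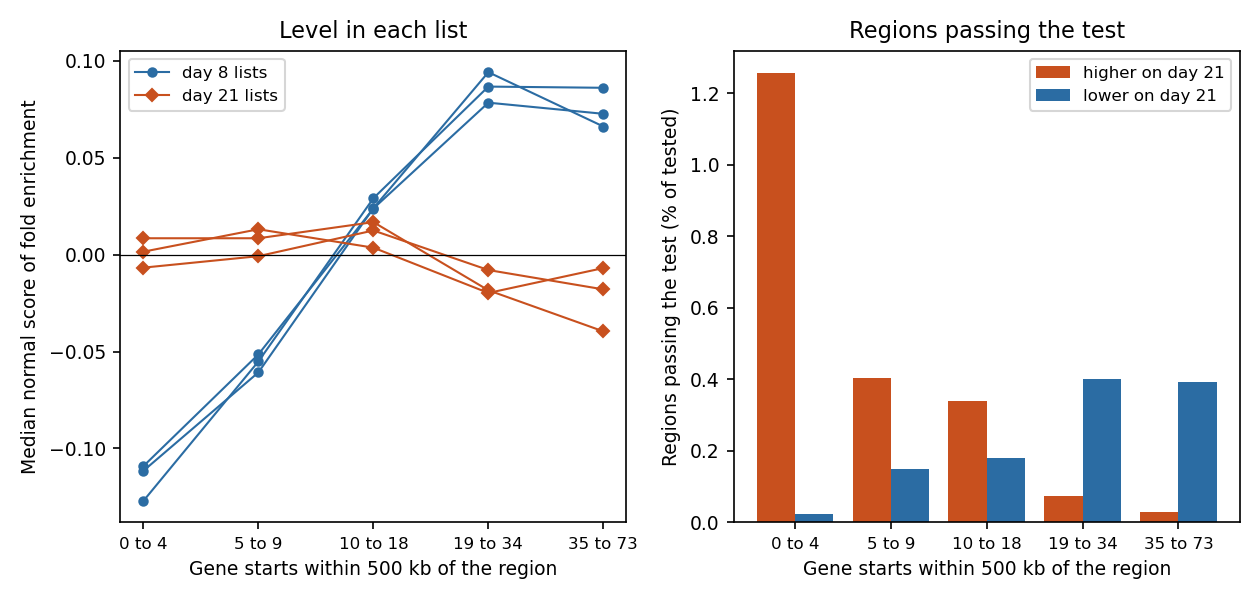
Regions called in all 6 lists, in 5 bins by the number of protein-coding gene starts within 500 kb. Left, the median normal score of fold enrichment in each list, which in the 3 day 8 lists rises over the first 4 bins and not from there to the densest, and in the 3 day 21 lists stays near 0; right, the percentage of tested regions that passed the test as higher (56 of 4461 in the poorest bin, 1 of 3322 in the densest) or lower on day 21 (1 and 13).

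The local background moved with gene density too. The median difference of its normal score went from 0.20 in the gene-poorest bin to −0.20 in the densest, and that of the summit pileup from 0.20 to −0.23. Fold enrichment is the ratio of these quantities and moved less. With the gene density of each list removed, an alternative chosen after the gradient was seen, 113 regions rose and 56 fell. Of the 210 regions, 138 still passed (96 that rose and 42 that fell). All 210 kept their direction, which the small size of the gradient made likely in advance. Tbx21 did not pass there (limma, adjusted p = 0.0619). What the gradient comes from was not tested.

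Fold enrichment divides the tags at a summit by the local background, so each region was also ranked by its summit pileup alone. There 3463 regions rose (10.0%) and 3204 fell (9.27%), so 51.9% of calls were rises, against 64.8% with fold enrichment. Of the 210 regions, 209 kept their direction and 207 passed, though both ranks use the same summit tags. Ranked by the authors' −log10 p, 1447 rose (4.19%) and 1162 fell (3.36%). With gene density removed from the pileup ranks as well, chosen after these results were seen, 2294 rose (6.64%) and 1826 fell (5.28%).

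The core genes had 265 regions called in all 6 lists. By fold enrichment 1 rose, in Zeb2, and 1 fell, in Tbx21 (0.377% each, against 0.394% and 0.214% of all regions), and 44 had an unadjusted p under 0.05 (16.6%, against 16.5%). These shares are near those of all regions. By summit pileup 29 rose (10.9%) and 11 fell (4.15%), against 10.0% and 9.27% of all regions. These regions had a median of 7 gene starts within 500 kb, against 12 for all. With gene density removed from the pileup ranks, 23 rose (8.68%, against 6.64% of all) and 19 fell (7.17%, against 5.28%), so the low share of falls was not seen there. At that step 14 of the 40 regions no longer passed and 16 others did. Without each list in turn, 14 to 24 rose (5.28% to 9.06%, against 6.81% to 7.73% of all) and 7 to 9 fell (2.64% to 3.40%, against 5.90% to 6.73%), with the fewest rises without day 8 list 1 (14), day 21 list 3 (17) and day 21 list 2 (19).

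Zeb2 encodes a transcription factor of terminal effector cells, and its locus moved in both directions. The region chr2:45017198-45018001 in the gene body rose from percentiles 47.0, 46.3 and 60.0 of fold enrichment to 75.4, 83.2 and 88.1 (0.91 ± 0.18 SE, limma, adjusted p = 0.0435; with gene density removed, 0.0801). Its summit pileup went from percentiles 15.6, 20.7 and 22.7 to 51.3, 55.4 and 55.0 (limma, adjusted p = 8.67e-05; with gene density removed, 0.000836). The region chr2:45172430-45173251, 55.0 kb from the gene, did the reverse, from 47.2, 50.6 and 44.4 to 22.4, 26.0 and 25.3 by summit pileup (−0.62, limma, adjusted p = 0.00735). By fold enrichment it had 80.5, 75.3 and 74.1 on day 8 and 44.1, 43.7 and 57.0 on day 21, and passed only with gene density removed (limma, adjusted p = 0.0386, against 0.0575 without). A further 2 regions of Zeb2 rose by summit pileup, at chr2:44960191 (0.54) and chr2:44981648 (0.71), the former not with gene density removed (limma, adjusted p = 0.165).

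At Pdcd1, summit pileup rose in 4 of its 5 tested regions although the rank of fold enrichment passed in none. Over all tested regions 10.0% rose by summit pileup. These regions, and those of the other genes given by summit pileup below, were picked after their values were seen. The strongest change was at chr1:94091583-94092490, 39.0 kb from the gene, where the pileup percentile was 69.0, 75.1 and 83.4 on day 8 and 94.4, 95.8 and 95.3 on day 21 (0.95, limma, adjusted p = 2.61e-07). Its local background was at percentiles 25.7, 25.3 and 34.8 on day 8 and 63.3, 64.3 and 58.9 on day 21, and its fold enrichment stayed at percentiles of 97.7 to 99.8 in all 6 lists. The region chr1:94034872-94036025, 2.28 kb from the gene, went from pileup percentiles 98.9, 98.0 and 99.0 to 99.6, 99.9 and 99.5 (0.58), and chr1:94053558-94054047 went from 61.6, 54.7 and 47.7 to 64.2, 75.7 and 68.5 (0.40).

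The fourth Pdcd1 region, chr1:94078941-94079485, went from 57.9, 64.1 and 56.0 to 73.0, 72.2 and 70.2 (0.34, limma, adjusted p = 0.0261). In all 4 the day 21 lists lay above every day 8 list. They were picked as regions that passed, which favours such separation. Its share over all regions was not counted for summit pileup. With gene density removed 3 of the 4 passed, the fourth having an adjusted p of 0.0514 (limma). At that step 6.64% of all tested regions rose. Without each list in turn, 1 to 4 passed (1 without day 21 list 2, 2 without day 8 list 3).

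Cd69, whose product retains activated T cells in tissue, also had rises by summit pileup only. Of its 11 tested regions 4 rose by summit pileup (against 10.0% of all), with differences of 0.29 to 0.51, and none passed by fold enrichment. At chr6:129234457-129235020, 32.3 kb from the gene, the pileup percentile went from 59.2, 67.1 and 54.7 to 74.8, 75.7 and 82.8, while the local background went from 98.5, 98.6 and 97.9 to 99.4, 99.5 and 99.6. These 4 regions have 28 or 29 gene starts nearby, and their differences were larger with gene density removed (0.49 to 0.70), where another 3 regions of the gene passed as rises.

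At Ifng, the gene of the cytokine interferon-γ, 4 of 16 tested regions rose by summit pileup (0.45 to 0.71), against 10.0% of all. None rose by fold enrichment. The region chr10:118455796-118456115, 9.90 kb from the gene, went from pileup percentiles 8.33, 13.6 and 15.9 to 33.7, 32.7 and 31.1 (0.71, limma, adjusted p = 0.0233). None of the 4 passed with gene density removed, where their adjusted p-values were 0.0682 to 0.180 (limma).

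Among other genes of effector and exhausted cells, 2 regions of Tox, a regulator of exhaustion, rose by summit pileup (0.40 each), as did regions of the inhibitory receptor gene Tigit (0.34), of the ectoenzyme gene Entpd1 (0.34), of Klrg1, a terminal effector receptor gene (0.39), of Prdm1 (0.34), of Nr4a2, which responds to receptor signals (0.33), and of Il2ra (0.54). Those of Tox, Tigit, Prdm1 and Nr4a2 did not pass with gene density removed. A Ctla4 region fell (−0.33), as did 2 regions of the activation factor gene Batf (−0.45 and −1.20), 1 of Itgae, an integrin of resident cells (−0.44; with gene density removed, it did not pass), and 1 of Id2 (−0.32). No tested region of Eomes, Gzma, Gzmb, Prf1, Cx3cr1, Ccl5, Havcr2, Lag3, Cd244a, Nr4a1, Irf4 or Cxcr6 passed by fold enrichment or summit pileup. With gene density removed from the pileup ranks, 2 regions of Gzmb passed as rises (0.35 and 0.36, limma, adjusted p = 0.0498 and 0.0494), and single regions of Eomes (−0.40), Ctla4 (−0.68) and Id2 (−0.45) as falls.

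Genes of memory and stem-like cells had regions that rose and regions that fell by summit pileup. A region 16.0 kb from Tcf7, the gene of TCF-1, fell by summit pileup from percentiles 96.7, 98.5 and 98.5 to 94.2, 94.2 and 95.6 (chr11:52299380-52300233, −0.45, limma, adjusted p = 0.00788), and the other 7 tested regions of the gene did not pass. Lef1, its partner factor gene, had a region that rose by pileup from 6.20, 2.30 and 7.70 to 17.7, 26.0 and 25.3 (chr3:131064879-131065339, 0.91), with an adjusted p of 0.0610 by fold enrichment (limma). Regions of Il7r, the interleukin-7 receptor gene (0.71), of the node-homing receptor gene Ccr7 (0.31 and 0.40) and of Slamf6 (0.49) rose by pileup. Bach2, a repressor of effector differentiation, had 1 region that rose (0.85) and 1 that fell (−0.45) among 31. Single regions of Id3 (−1.15) and Foxo1 (−0.45) fell. With gene density removed, the Id3 region and the rising Bach2 region did not pass. By summit pileup without that step, no region of Cxcr3, Bcl6 or Myb passed. With it, a Cxcr3 region passed as a rise (0.36), and single regions of Bcl6 (−0.94), Myb (−0.37) and Bach2 (−0.40) and 4 of Foxo1 (−0.35 to −0.48) as falls. Averaged over a gene's tested regions, fold-enrichment rank differed by 0.52 ± 0.14 SE at Il7r and by 0.39 ± 0.12 at Slamf6, and neither passed (limma, adjusted p = 0.110 and 0.131).

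**Figure D5:**
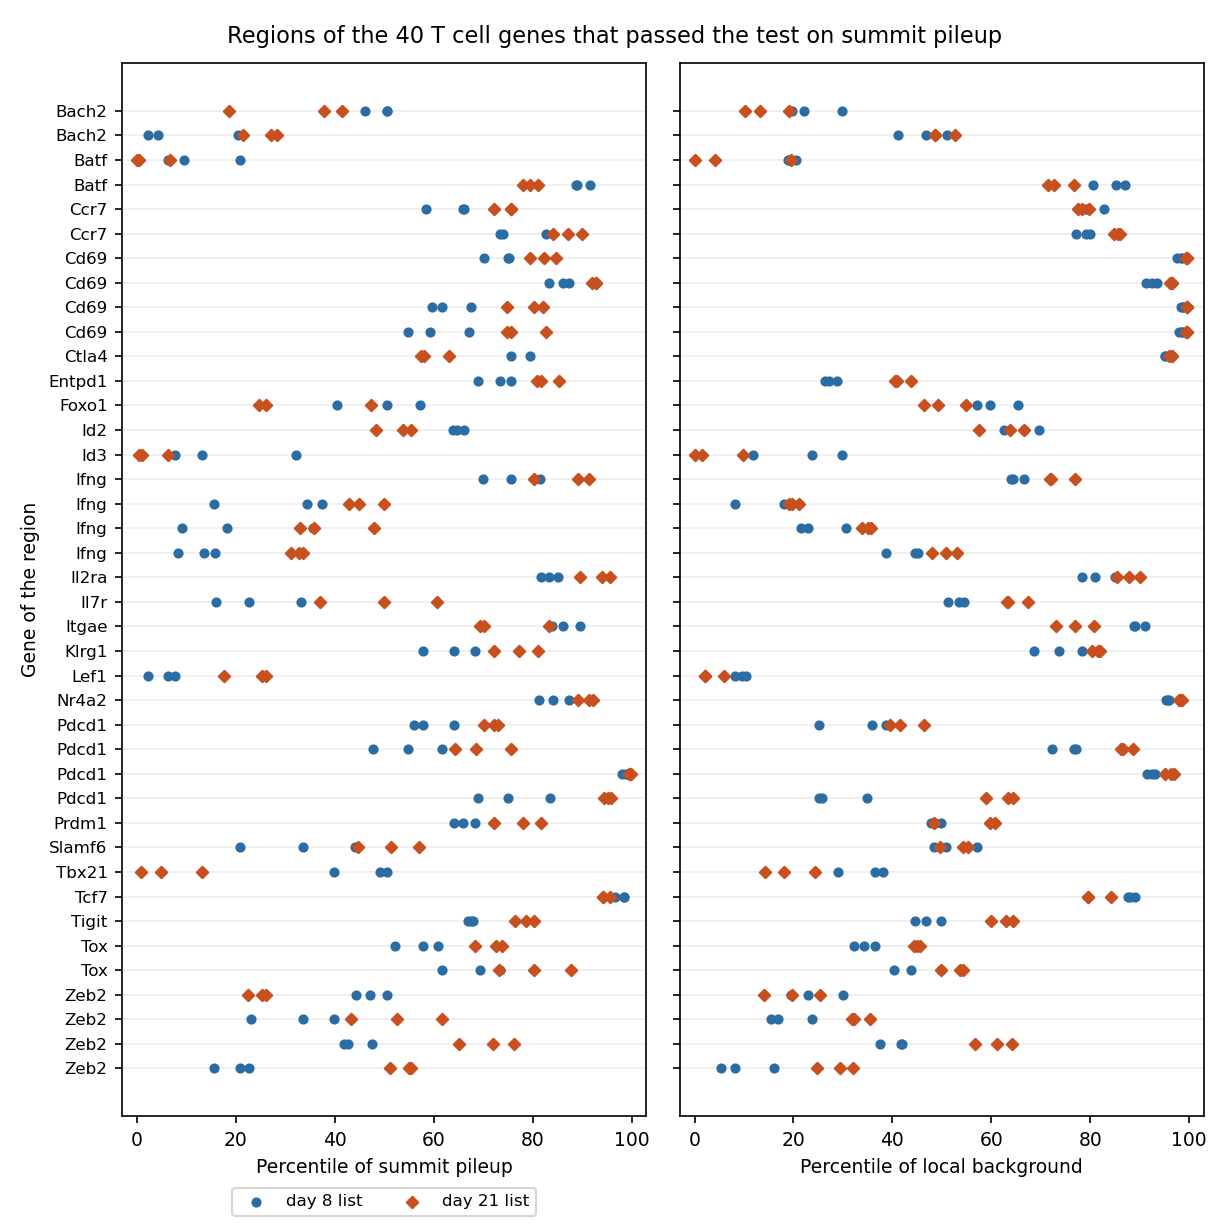
Percentile of summit pileup (left) and of local background (right) among regions called in all 6 lists, for the 40 regions of the core genes that passed the test on summit pileup, 29 higher and 11 lower on day 21. Circles are the 3 day 8 lists and diamonds the 3 day 21 lists; at the 4 Pdcd1 regions diamonds lie to the right of circles in both panels.

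By fold enrichment, the single region with the largest difference at each core gene did not pass except at Zeb2 and Tbx21. The others included Bach2 (0.98 ± 0.31 SE), Lef1 (0.97 ± 0.22), Batf (−0.85 ± 0.31), Ctla4 (−0.81 ± 0.36) and Id3 (−0.77 ± 0.29), with adjusted p-values from 0.0610 to 0.285 (limma). At Pdcd1 it was 0.43 ± 0.17 (limma, adjusted p = 0.238), at Tcf7 0.69 ± 0.28 (limma, adjusted p = 0.239) and at Ifng 0.71 ± 0.24 (limma, adjusted p = 0.167).

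Gene lists shifted by small amounts. The median difference of fold-enrichment rank was 0.10 over 277 regions of memory and stemness genes, 0.09 over 133 regions of effector genes, 0.04 over 132 of inhibitory receptor and exhaustion genes and −0.01 over 152 of receptor-signal and activation genes, against −0.01 over all 34555. Of these 4 lists only the effector list had calls, those of Zeb2 and Tbx21. Medians were 0.11 for T cell identity genes and for cytokine receptors and STATs, 0.06 for tissue residency, 0.04 for cell division, −0.06 for interferon response and −0.02 for constitutively expressed genes, with no region passing in any of them. By summit pileup, regions rose and fell in 21 and 8 of 132 for exhaustion genes (15.9% and 6.06%), 20 and 9 of 133 for effector genes (15.04% and 6.77%), 23 and 11 of 152 for activation genes (15.1% and 7.24%) and 20 and 8 of 277 for memory genes (7.22% and 2.89%), against 10.0% and 9.27% over all regions. Regions of these 4 lists had medians of 11, 7, 10 and 6 gene starts within 500 kb, against 12 for all. Gene density was not removed from these shares. For constitutively expressed genes 0 rose and 9 of 58 fell, and their regions had a median of 18.5 gene starts nearby. Marker lists of other cell types also held regions passing by summit pileup. These were 6 rises and 0 falls of 20 for NK cells, 5 and 1 of 26 for CD4 and regulatory T cells, 2 and 1 of 22 for myeloid cells, 1 and 2 of 13 for B cells, 0 and 5 of 16 for stromal and endothelial cells, 2 and 0 of 8 for melanoma and 0 and 1 of 3 for erythroid cells and platelets, and 2 and 4 of 47 for CD8 T cells themselves. Median differences of fold-enrichment rank were −0.31 for the stromal list, −0.20 for B cells, 0.07 for NK cells and 0.13 for CD4 and regulatory T cells. No test compares these lists with other genes, and the part of other cell types in these shifts was not tested.

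Averaged over the tested regions of a gene, 26 of 7562 genes passed, 8 higher (0.106%) and 18 lower (0.238%), and none was a core gene. Plek, which encodes the leukocyte signalling protein pleckstrin, had the largest rise, with mean normal scores of −1.01, −1.19 and −1.05 on day 8 and −0.26, −0.16 and −0.35 on day 21 over 2 regions (0.83 ± 0.11 SE, limma, adjusted p = 0.0167). Next were Gm19802 (0.81), Ntn4, a netrin gene (0.77), and Nrxn3 over 5 regions (0.75). The largest falls were at Hsf5 (−1.15 ± 0.16, limma, adjusted p = 0.0173), Acad12 (−1.01), Dnajc8 (−0.95), Zfp687 (−0.95) and Pi4kb (−0.88), of which the last pair share a region. Without each list in turn, 0 to 12 genes passed.

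The day 4 lists, which were shorter and entered no test, were set beside these changes. At the 25 rising regions that were called in all 9 lists, median percentiles among the 15109 such regions were 42.4 on day 4, 37.9 on day 8 and 82.2 on day 21, and day 4 lay nearer to day 21 in 4 of 25. At the 15 falling regions they were 32.9, 81.6 and 36.3, and day 4 lay nearer to day 21 in 13 of 15. Over all 15109, day 4 lay nearer to day 21 in 7012. At least 1 day 4 list called 73 of the 136 rising regions (53.7%) and 29 of the 74 falling ones (39.2%), against 65.0% of all tested.

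The number of calls by fold enrichment depended on which list was left out. Without day 8 list 1, 2 or 3 there were 38, 22 and 49, and without day 21 list 1, 2 or 3 there were 2, 23 and 30, against 210 with all 6.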

How the data were processed

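The submitters' processing notes name mm10 and the tools BWA 0.7.15, MACS2, Picard and deepTools 2.0, without roles or settings. The deposited files are 1 narrowPeak list per library, so peaks were called per sample. For each peak the deposited values are a score, a ratio (the fold enrichment of the summit over local background) and −log10 of the p-value and q-value, from the authors' peak caller, and they were used only within a list.

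Groups and replicate numbers came from the titles, because the genotype tag holds the day and the time point tag holds WT. Peaks of the 9 lists were merged into regions wherever they shared at least 1 base. The highest fold enrichment of a region was ranked among the 34555 regions called in all 6 lists and turned into normal scores. These were fitted with limma 3.58.1 (trend, robust; R 4.3.3) on the 6 lists, with Benjamini-Hochberg adjustment and a threshold of 0.05. Genes with at least 2 tested regions were fitted on their mean score. Single values per list were compared by exact permutation over all 20 arrangements. The summit pileup and local background were recovered from fold enrichment and −log10 p by the Poisson formula, as whole pileups for 99.998% to 100% of the peaks of each of the 6 lists (tolerance 0.001 in −log10 p). Depth is known only through the local background.

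Regions were assigned to the protein-coding genes they overlap, or else to the nearest gene within 100 kb, from a RefSeq table (21631 genes, GRCm38.p6, the assembly of mm10). Named regions farther away carry only the name of their nearest gene. The table has no strand, so the planned distance to a transcription start became the distance to a gene end. Of 298 listed genes 295 matched. Coordinates are 1-based. RefSeq's promoter table matched 17274 of the genes; no genome was used here, so sequences of other regions are not shown.

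Named regions were the 10 largest rises and falls among those that passed without overlap of the days, the 10 gained and 10 lost regions of highest mean percentile, the region of largest difference and all gained and lost regions of each of 40 core genes, and the 5 genes with the largest rise and fall; a few of these are not reported here. The members and lists were chosen with earlier results of these data known. The fit was also run on simulated data with 34555 regions, of which 200 were shifted. It recovered 97 of 100 shifts of 1.5 and 18 of 100 shifts of 0.75, and called 9 unshifted regions. These numbers hold for the simulated spread only. They cannot show how many of the real calls are right, because the lists do not give the spread between separate animals. Chromosomes Y and M were left out. Figures used Python 3.11.15 and matplotlib 3.10.9.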

Additional observations from a re-analysis of the deposited data

Results flagged for a closer look

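Peaks on chromosome Y lay outside the comparison. The day 8 lists held 20 to 21 of them and the day 21 lists 22 to 26, each above the 3 that a count of 0 allows. They are listed here because they are signal in data that the comparison did not use, and the series has no control library to set them against.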

How the results depend on the processing

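Of the 210 regions, 210 kept their direction by −log10 p, as means over peaks and with gene density removed, and 209 by summit pileup. These values come from the same peaks, so agreement in direction was largely fixed in advance and is no separate support. Under the other alternatives the direction was largely fixed in advance as well, because the lists of the days do not overlap at these regions. The number passing moved. With the replicate number as a block 102 passed (77 higher, 25 lower), of which 92 were among the 210. Ranked by −log10 p, 2609 passed (1447 and 1162), by summit pileup 6667 (3463 and 3204), and by summit pileup with gene density removed 4120 (2294 and 1826). As percentiles 10 passed (9 and 1), ranked in the whole list 59 (45 and 14), as means over peaks 65 (45 and 20), and without trend and robust fitting 81 (56 and 25). Rises were 64.8% of the 210 calls, and 75.5% with the block, 55.5% by −log10 p, 51.9% and 55.7% by summit pileup without and with gene density removed, 90.0% as percentiles and 76.3% in the whole list. Without each list in turn 2 to 49 passed, 1 to 41 higher and 1 to 10 lower.

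Regions called in at least 2 of 3 lists of a day and none of the other numbered 2171 gained and 2297 lost. Without each list they were 865 to 1336 and 912 to 1425, because fewer lists then had to call or to lack a region. For genes, 0 passed with the block, 75 on the highest score of a gene's regions, 51 with regions within 10 kb and 0 to 12 without each list. The difference in peaks per list ran from −2017 to 621 without each list and turned positive without day 8 list 3 (620.7) or day 21 list 1 (270.5) or 2 (572.5). That in the share near gene ends ran from −0.741 to 0.306 percentage points, positive without day 21 list 3. Apart from the constructions named, the cause was not tested.

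Same-numbered lists of the days did not deviate together (correlations of deviations 0.016, −0.0018 and 0.019), so no pairing by number was seen in these values. Whether the numbers mark a shared animal or run was not tested. Lists 1 and 3 correlated best with their own number and list 2 did not. Over single regions and genes named and the counts of core regions by summit pileup, 0 results reversed, 220 stopped passing, 26 started to pass and 911 stayed the same, while 8 of the counts moved over 1.5 times. Read totals are not in the lists, so depth limits weak regions to an unknown degree.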
